A study of Mus musculus with 12 samples.

Results

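The genes described are *Id1*, *Id2* and *Id3*, which encode inhibitor of DNA binding (Id) proteins, and *Tcf3*, *Tcf4* and *Tcf12*, which encode E proteins. They were chosen by name as the Id genes and their E-protein partners, and all 6 were found among the 15651 genes of the expression table. The RNA-seq libraries were made from c-Kit+ spleen cells of 6 moribund AML mice, 3 of the genotype Dnmt3a fl/fl, Flt3 ITD/ITD, Mx1Cre (*D/F*) and 3 of the genotype Tet2 fl/fl, Flt3 ITD/ITD, Mx1Cre (*T/F*). Cells of each mouse were divided between the solvent DMSO and CCS1477 (inobrodib), a small molecule that occupies the bromodomains of the acetyltransferases p300 and CBP, and were cultured for 6 hours with SCF, IL-6 and IL-3. The *D/F* cells received 4 μM and the *T/F* cells 2 μM CCS1477, so genotype and dose cannot be told apart in any comparison of the treated cells. Each of the 4 groups (*D/F* DMSO, *D/F* CCS1477, *T/F* DMSO, *T/F* CCS1477) held 3 samples, and a replicate number marks the same mouse in both treatments of a genotype. All groups carried the *Flt3* internal tandem duplication and Mx1Cre. The mice received no pIpC, so deletion of the floxed alleles was spontaneous and may have involved one or both alleles. The ages of the mice were not given in the sources used here.

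E proteins are class I basic helix-loop-helix (bHLH) transcription factors that bind E-box DNA (CANNTG) as dimers, with one another or with tissue-specific class II partners such as Tal1 and Lyl1. Id proteins have the helix-loop-helix but lack the basic region that contacts DNA, so a dimer of an Id protein with an E protein does not bind the E-box. In blood formation, E proteins drive lymphoid commitment and *Tcf4* the plasmacytoid dendritic cell, and *Id2* is required for innate lymphoid cells and some conventional dendritic cells. *Id1* is a direct target of BMP signaling through SMAD proteins and is expressed in myeloid progenitors.

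The values are TPM, an abundance corrected for transcript length and expressed relative to all transcripts of a library, so that levels may be compared between genes. The number of reads behind a value is unknown, and the precision of a level is the spread between 3 mice. The myeloid progenitor identity was checked with 10 marker genes, all of which were at or above 1 TPM in all 12 libraries. Their summed level was 4297 to 10640 TPM under DMSO and 975.1 to 4466 TPM under CCS1477. The libraries also held transcripts of mature neutrophils (7 of 7 markers listed, summed level 1667 to 9406 TPM), and conventional dendritic cells (7 of 7 listed, 84.4 to 788 TPM). The summed levels were lower for the erythroid and megakaryocytic markers (6 of 7 listed, 22.1 to 208 TPM) and the mast cell and basophil markers (4 of 5, 30.4 to 262 TPM). Those of B cells (3 of 7, 5.50 to 26.5 TPM), T and NK cells (4 of 10, 13.8 to 28.1 TPM) and plasmacytoid dendritic cells (2 of 5, 4.16 to 15.8 TPM) were lower still, with *Klrb1c* at 0 in at least 1 library of 3 groups. *D/F* replicate 2 stood apart from the other *D/F* mice. Its mature neutrophil sum was 2711 TPM under DMSO and 1667 TPM under CCS1477, against 6280 to 9406 TPM in the other *D/F* libraries, and its erythroid and megakaryocytic sum was 208 and 67.7 TPM, against 22.1 to 51.2 TPM. *Dnmt3a*, the gene targeted in *D/F*, was at 29.3 to 55.7 TPM in *D/F* DMSO and 39.9 to 53.9 TPM in *T/F* DMSO. *Tet2*, targeted in *T/F*, was at 38.3 to 43.4 TPM in *D/F* DMSO and 30.0 to 35.8 TPM in *T/F* DMSO. Fewer cells of a type and less RNA per cell cannot be told apart in these bulk samples.

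*Id3* was by far the least abundant of the genes. In *D/F* DMSO the order was *Tcf3* (92.3 ± 8.43 TPM, SD, n = 3), *Id1* (71.8 ± 32.5), *Id2* (70.4 ± 33.1), *Tcf4* (54.3 ± 19.1), *Tcf12* (40.1 ± 2.73) and *Id3* (6.63 ± 8.28). In *T/F* DMSO it was *Id2* (106 ± 41.6 TPM, SD, n = 3), *Tcf3* (96.4 ± 6.18), *Id1* (80.4 ± 19.6), *Tcf4* (48.0 ± 8.57), *Tcf12* (35.6 ± 1.31) and *Id3* (7.24 ± 0.897). Neighbours among *Tcf3*, *Id1* and *Id2* overlapped in both genotypes, so their order under DMSO is not resolved, while *Tcf12* lay above *Id3* in every library. Under CCS1477 *Id1* had the highest mean in both genotypes, at 97.7 ± 76.8 TPM in *D/F* and 116 ± 38.2 TPM in *T/F* (SD, n = 3). It exceeded *Tcf3* in all 3 *T/F* libraries without overlap and in 2 of 3 *D/F* libraries. *Id2* then lay between *Tcf3* and *Tcf4* in *T/F*, overlapping both, and below *Tcf12* in *D/F*, also overlapping.

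**Figure D1:**
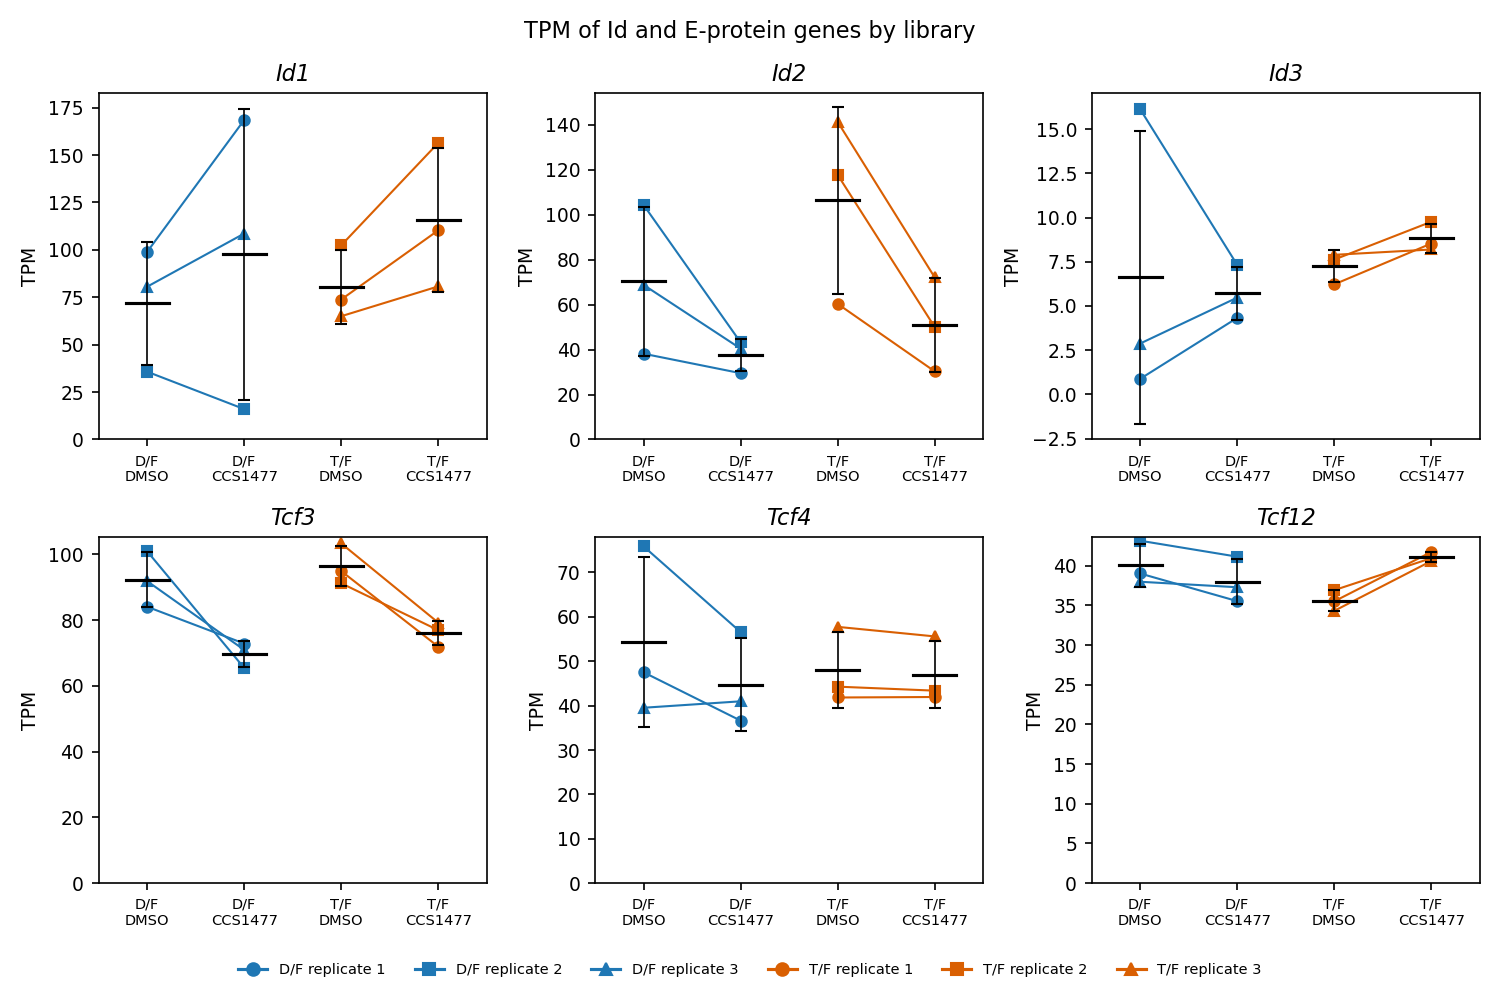
TPM of the 6 genes in each of the 12 libraries, with one panel and one linear axis per gene. Symbols are mice, lines join the DMSO and CCS1477 samples of a mouse, black bars are group means and whiskers 1 SD (n = 3); *Id2* and *Tcf3* are lower with CCS1477 in all 6 mice, and in *D/F* replicate 2 (blue squares) *Id1* and *Id3* are lower where they are higher in the other 5 mice.

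The first comparison asked how 6 hours of p300/CBP bromodomain inhibition moved the Id and E-protein transcripts. *Id2* and *Tcf3* fell over both genotypes, and no member rose in that fit. A gene passed at an adjusted p below 0.05 in limma on log2(TPM + 1), and changes are given on that scale as CCS1477 minus DMSO, which understates the change of low genes. Over both genotypes 2 of the 6 genes passed, both lower, where 19.6% of the 15583 genes tested passed as lower and 25.8% as higher. In *T/F* 1 of the 6 passed as lower (*Tcf3*) and 1 as higher (*Tcf12*), where 17.6% and 25.8% of 15256 genes did. In *D/F* 0 of the 6 passed in limma, where 6.51% of 15501 genes passed as lower and 5.14% as higher. There 1 member (*Tcf3*) had an unadjusted p below 0.05, as did 4712 of the 15501 genes. No member passed above 2-fold in any of these fits. The 2 samples of a mouse deviated together across genes, and with the mouse as a block more genes passed: for *D/F* 18% lower and 21.4% higher, for *T/F* 22.9% and 31.2%, and over both genotypes 25.9% and 34.5%. With that block *Id2* also passed in *D/F*, *Id2* and *Id1* also passed in *T/F*, and the same 2 genes (*Id2* and *Tcf3*) passed over both.

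*Id2* (ENSMUSG00000020644, GRCm38 12:25093799-25097140, reverse strand) was the Id gene that fell. It was at 38.2, 104 and 68.8 TPM in *D/F* DMSO replicates 1, 2 and 3 and at 29.5, 43.2 and 40.4 TPM in the same mice under CCS1477. The *T/F* mice were at 60.3, 118 and 141 TPM under DMSO and at 30.3, 50.01 and 72.1 TPM under CCS1477. Every mouse was lower with CCS1477, with 0.414 to 0.773 of its DMSO level in *D/F* and 0.425 to 0.510 in *T/F*, although the groups overlapped because the mice started from different levels. Over both genotypes the change was -0.92 (SE 0.29, adjusted p = 0.0238), a fold of 0.529, and the blocked fit gave an SE of 0.12 and an adjusted p of 0.000508. The exact sign permutation test over the 6 mice gave p = 0.03125, the smallest it can give. Within *D/F* the change was -0.79 (SE 0.37, adjusted p = 0.212, and 0.0402 with the block), and within *T/F* -1.05 (SE 0.43, adjusted p = 0.0958, and 0.00261 with the block), where the blocked value passed above 2-fold. The unblocked call over both genotypes rested on each of 2 mice: the adjusted p was 0.0588 without *D/F* replicate 3 and 0.0804 without *T/F* replicate 2 (0.00207 and 0.00218 with the block), in a range of 0.000508 to 0.0804 over the 13 alternatives to the unblocked fit. In *D/F* the blocked call was lost without any one of the 3 mice (adjusted p 0.0552, 0.0655 and 0.148 without replicates 1, 2 and 3).

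The summed levels of several marker lists were lower with CCS1477 in the same mice as *Id2*, among them that of the conventional dendritic cells, some of which need *Id2*. It was 129, 517 and 359 TPM in *D/F* DMSO replicates 1, 2 and 3 and 84.4, 89.8 and 195 TPM under CCS1477. In *T/F* it was 275, 352 and 788 TPM under DMSO and 134, 182 and 360 TPM under CCS1477. The sum was lower with CCS1477 in all 6 mice, and under DMSO the mice of each genotype had the same order by this sum as by *Id2*. Under CCS1477 the *D/F* order differed, with the sum highest in replicate 3 and *Id2* highest in replicate 2. *H2-Ab1*, an MHC class II gene that B cells and other antigen-presenting cells also express, made up most of it, and *Clec9a*, a receptor of conventional dendritic cells, was at 1.63 to 9.63 TPM in *D/F* DMSO and 0.0667 to 0.314 TPM in *D/F* CCS1477. The part of these markers in the *Id2* result was not tested. The sums of the myeloid progenitor, mast cell and basophil, erythroid and megakaryocytic, and B cell markers were also lower with CCS1477 in all 6 mice. Under DMSO the erythroid and megakaryocytic sum (34.9, 208 and 51.2 TPM) ordered the *D/F* mice as *Id2* did. In *T/F* DMSO that sum was 72.2, 63.2 and 53.0 TPM in replicates 1, 2 and 3, the reverse of the order by *Id2*.

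For *Id2* the stretch shown is the upstream part of its RefSeq promoter window (GRCm38.p6, 250 bases before to 50 after the annotated start), at chr12:25096254-25096342 on the reverse strand. It lies within the span of the gene and outside its annotated exons. The gene begins at 25097140 on this strand, so the stretch does not precede the gene's first annotated base. It is shown because *Id2* was one of the genes that fell in all 6 mice. Capitals mark an E-box (CANNTG), the letters that E proteins bind, and the GC-rich element GGCGCC known from SMAD-responsive genes, both searched on both strands.

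Id2: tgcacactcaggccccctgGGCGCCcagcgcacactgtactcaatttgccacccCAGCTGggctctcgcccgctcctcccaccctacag

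The whole *Id2* window held 1 E-box and 1 GGCGCC. Of all 32851 RefSeq promoter windows 72.3% held an E-box and 11.9% held GGCGCC, so the E-box is common to most promoters. A match is a run of letters and not a measured site.

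*Id1* (ENSMUSG00000042745, GRCm38 2:152736251-152737410, forward strand), which holds back differentiation in many progenitors, was at 99.0, 35.7 and 80.6 TPM in *D/F* DMSO replicates 1, 2 and 3. Under CCS1477 the same mice were at 169, 16.02 and 109 TPM. The *T/F* mice were at 73.8, 102 and 65.0 TPM under DMSO and at 110, 156 and 80.7 TPM under CCS1477. It was higher with CCS1477 in 5 of 6 mice, at 1.24 to 1.70 times the DMSO level, and lower in *D/F* replicate 2, at 0.448 times. The change over both genotypes did not pass (0.26, SE 0.49, adjusted p = 0.701; exact sign permutation p = 0.406), and its 95% interval ran from -0.82 to 1.34. In *T/F* the change was 0.50 (SE 0.28, adjusted p = 0.205), and it passed with the mouse as a block (SE 0.082, adjusted p = 0.0126), although not without *T/F* replicate 1 (0.0522) or replicate 2 (0.0671). In *D/F* it was 0.026 (SE 0.88, adjusted p = 0.987), and the value reversed to -0.34 without replicate 1 and to -0.17 without replicate 3. Without *D/F* replicate 2 the change over both genotypes was 0.54. It still did not pass unblocked (adjusted p = 0.0502) but passed with the block (adjusted p = 0.00132), so this mouse changed the blocked call only.

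The myeloid progenitor and the mature neutrophil markers both had the same order between the *D/F* mice as *Id1*. The progenitor sum was 10640, 4297 and 8323 TPM in *D/F* DMSO replicates 1, 2 and 3 and 4466, 975.1 and 3314 TPM under CCS1477. In *T/F* it was 6898, 6180 and 4672 TPM under DMSO and 3257, 2684 and 1917 TPM under CCS1477, lowest in replicate 3. The neutrophil sum was 9406, 2711 and 6280 TPM in *D/F* DMSO and 9340, 1667 and 6645 TPM under CCS1477. In *T/F* it was 7167, 5670 and 2364 TPM under DMSO and 6923, 5205 and 2524 TPM under CCS1477, and the mouse with the lowest sum, replicate 3, had the lowest *Id1* in both treatments. The *T/F* order otherwise differed: in both treatments the 2 sums were highest in replicate 1, and *Id1* was highest in replicate 2. The part of these cells in the *Id1* values was not tested.

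*Id3* (ENSMUSG00000007872, GRCm38 4:136143497-136145755, forward strand), known as a gene induced by antigen receptor signaling in lymphocytes, was the lowest of the 6. It was at 0.881, 16.1 and 2.88 TPM in *D/F* DMSO and at 4.33, 7.33 and 5.47 TPM in *D/F* CCS1477. *T/F* levels were 6.22, 7.62 and 7.89 TPM under DMSO and 8.53, 9.76 and 8.19 TPM under CCS1477. The *D/F* mice ranged widely under DMSO and narrowly under CCS1477, and the *T/F* groups did not overlap. As for *Id1*, 5 of 6 mice were higher with CCS1477 and *D/F* replicate 2 was lower, at 0.454 times its DMSO level. The change did not pass over both genotypes (0.33, SE 0.41, adjusted p = 0.548), in *D/F* (0.40, SE 0.76, adjusted p = 0.770) or in *T/F* (0.26, SE 0.11, adjusted p = 0.110, and 0.0790 with the block). The exact 3 against 3 permutation test in *T/F* gave p = 0.1, the smallest it can give. Without *D/F* replicate 2 the change over both genotypes was 0.60 and passed (adjusted p = 0.0457, and 0.0450 with the block), in a range of adjusted p from 0.0457 to 0.847 over 13 alternatives, and in *D/F* it was 1.12 and did not pass (adjusted p = 0.104, and 0.0444 with the block).

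*Tcf3* (ENSMUSG00000020167, GRCm38 10:80409514-80433647, reverse strand), which encodes the E2A proteins E12 and E47, was the E-protein gene that fell. It was at 84.0, 101 and 91.8 TPM in *D/F* DMSO and at 72.9, 65.4 and 70.9 TPM in *D/F* CCS1477. *T/F* levels were 94.9, 91.2 and 103 TPM under DMSO and 71.9, 76.9 and 79.2 TPM under CCS1477. All 6 mice were lower with CCS1477, and the treated and control groups overlapped in neither genotype. Over both genotypes the change was -0.37 (SE 0.070, adjusted p = 0.00132, and 0.00199 with the block), a fold of 0.775, and it passed under each of the 13 alternatives run (adjusted p 0.000469 to 0.00993). The exact sign permutation test over the 6 mice gave p = 0.03125, the smallest it can give, and the exact 3 against 3 tests gave p = 0.1 in each genotype, likewise the smallest. Within *T/F* the change was -0.34 (SE 0.076, adjusted p = 0.0153), and the adjusted p was 0.112, 0.0781 and 0.0504 without replicates 1, 2 and 3 (0.0619, 0.0428 and 0.0656 with the block). Within *D/F* it was -0.40 (SE 0.15, adjusted p = 0.128, and 0.0588 with the block).

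For *Tcf3* the stretch shown is the part of the RefSeq promoter window (GRCm38.p6) that precedes the gene's annotated exons, at chr10:80433648-80433885 on the reverse strand, and it is shown because *Tcf3* was the other gene that fell in all 6 mice. Capitals mark the only E-box in the window, which held no GGCGCC.

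Tcf3: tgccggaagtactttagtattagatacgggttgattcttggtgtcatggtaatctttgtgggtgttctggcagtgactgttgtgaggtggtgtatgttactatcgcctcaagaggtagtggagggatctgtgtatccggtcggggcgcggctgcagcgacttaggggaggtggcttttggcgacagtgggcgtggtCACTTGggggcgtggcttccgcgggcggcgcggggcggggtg

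The stretch had a GC content of 58.4%, against 67.4% in the one printed for *Id2*. The letters CAGGTG, an E-box preferred by E proteins, were in neither window and in 20.2% of all windows.

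*Tcf12* (ENSMUSG00000032228, GRCm38 9:71842688-72111871, reverse strand) encodes HEB, the E protein that pairs with E2A in thymocytes. It was at 39.0, 43.2 and 38.0 TPM in *D/F* DMSO and at 35.5, 41.1 and 37.3 TPM in *D/F* CCS1477. *T/F* cells were at 35.5, 36.9 and 34.3 TPM under DMSO and at 41.7, 41.0 and 40.6 TPM under CCS1477. The 3 *D/F* mice were slightly lower with CCS1477 in overlapping groups, and the 3 *T/F* mice were higher without overlap. The change was 0.20 in *T/F* (SE 0.059, adjusted p = 0.0363), a fold of 1.15 that passed, and -0.075 in *D/F* (SE 0.14, adjusted p = 0.772), whose 95% interval ran from -0.42 to 0.27. The *T/F* call was lost when libraries were scaled to their median gene (0.13, adjusted p = 0.263), with quantile normalization (adjusted p = 0.0690), in the fit of all 4 groups (0.140) and without any one mouse (adjusted p 0.130, 0.124 and 0.210 without replicates 2, 3 and 1), in a range of 0.0209 to 0.263 over 11 alternatives. Over both genotypes the change was 0.064 (SE 0.075, adjusted p = 0.524).

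*Tcf4* (ENSMUSG00000053477) encodes E2-2, the E protein that maintains plasmacytoid dendritic cells. It was at 47.5, 75.9 and 39.5 TPM in *D/F* DMSO and at 36.6, 56.6 and 41.0 TPM in *D/F* CCS1477. *T/F* cells were at 41.8, 44.3 and 57.7 TPM under DMSO and at 41.9, 43.4 and 55.6 TPM under CCS1477. The treated and control groups overlapped in both genotypes, and in *T/F* each mouse was within 0.963 to 1.00 times its DMSO level. The change did not pass in *D/F* (-0.24, SE 0.29, adjusted p = 0.618), in *T/F* (-0.026, SE 0.16, adjusted p = 0.911) or over both genotypes (-0.14, SE 0.17, adjusted p = 0.555). With the mouse as a block the 95% interval in *T/F* ran from -0.16 to 0.11, and in *D/F* from -0.60 to 0.11. The mouse highest in *Tcf4* was the same in both treatments of a genotype, *D/F* replicate 2 and *T/F* replicate 3. These mice also had the highest sum of the plasmacytoid dendritic cell markers *Siglech* and *Spib*, at 15.8 and 12.7 TPM in *D/F* replicate 2 against 4.16 to 5.37 TPM in the other *D/F* libraries, and at 13.5 and 9.02 TPM in *T/F* replicate 3 against 5.69 to 8.26 TPM in the other *T/F* libraries. The other 3 markers of that list were not analysed here. The T and NK cell sum was likewise highest in these mice within each treatment of their genotype. It was 28.1 and 23.5 TPM in *D/F* replicate 2 and 17.1 and 17.3 TPM in *T/F* replicate 3. Under DMSO the same 2 mice were also highest in the conventional dendritic cell sum (517 and 788 TPM). The same held for the mast cell and basophil sum (262 and 107 TPM). Under CCS1477 these 2 sums were highest in *T/F* replicate 3 but not in *D/F* replicate 2. The erythroid and megakaryocytic sum under DMSO was highest in *D/F* replicate 2 (208 TPM) but lowest in *T/F* replicate 3 (53.0 TPM). The part of any of these cells in the *Tcf4* values was not tested.

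**Figure D2:**
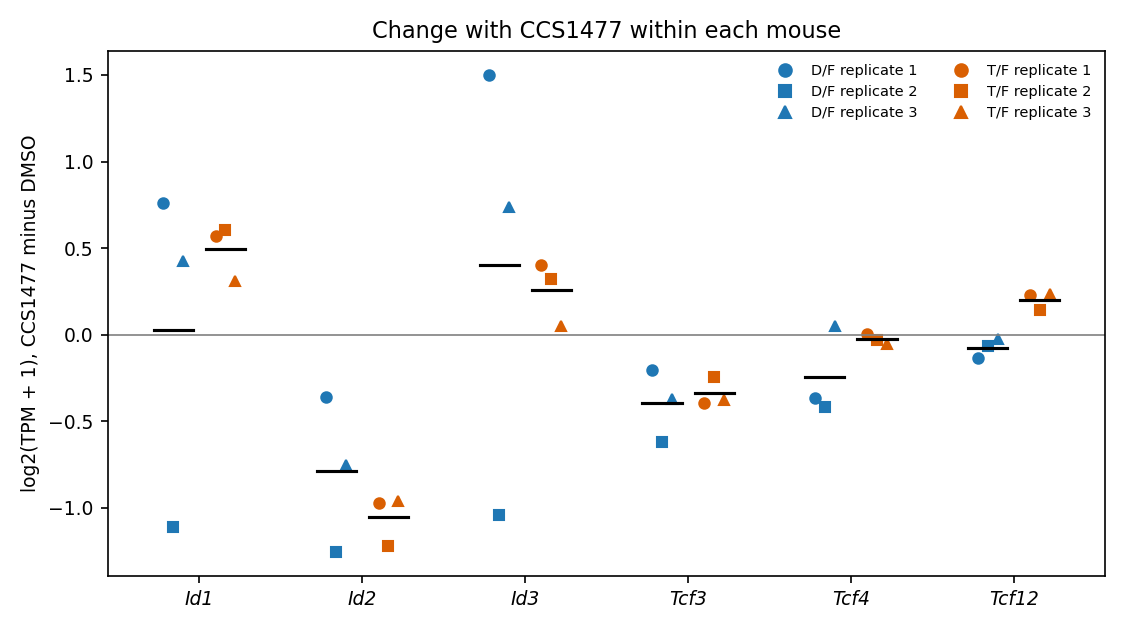
Change of each gene with CCS1477 within each mouse, as the difference of log2(TPM + 1) between CCS1477 and DMSO (vertical axis), with symbols for the 6 mice and black bars for the mean of 3 mice. *Id2* and *Tcf3* lie below 0 in 6 of 6 mice, *Id1* and *Id3* lie above 0 in 5 of 6, and *Tcf12* lies below 0 in the 3 *D/F* mice and above 0 in the 3 *T/F* mice.

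The proportion of *Id1* to *Id2* was followed within each mouse. The *Id1* level divided by the *Id2* level was 2.59, 0.343 and 1.17 in *D/F* DMSO replicates 1, 2 and 3 and 5.71, 0.371 and 2.69 under CCS1477. In *T/F* it was 1.22, 0.871 and 0.460 under DMSO and 3.64, 3.13 and 1.12 under CCS1477. The ratio was higher with CCS1477 in 6 of 6 mice and passed from below to above 1 in *T/F* replicates 2 and 3. In *D/F* replicate 2, where both genes were lower, it was nearly level. These ratios and the sums that follow are descriptions without a test.

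The summed Id level was 138, 156 and 152 TPM in *D/F* DMSO and 202, 66.5 and 154 TPM in *D/F* CCS1477, and in *T/F* it was 140, 228 and 214 TPM under DMSO and 149, 216 and 161 TPM under CCS1477. It was higher with CCS1477 in 3 mice and lower in 3. With libraries scaled to their median gene it was higher in 1 (*D/F* replicate 1) and lower in 5. Of these 5, *T/F* replicate 1 was nearly level, at 151.3 under DMSO and 151.2 under CCS1477. The direction in *D/F* replicate 3 and *T/F* replicate 1 thus depended on the scaling. The summed E-protein level was 171, 220 and 169 TPM in *D/F* DMSO and 145, 163 and 149 TPM in *D/F* CCS1477, and in *T/F* it was 172, 172 and 195 TPM under DMSO and 156, 161 and 175 TPM under CCS1477. It was lower in all 6 mice, with and without that scaling. *Tcf3* made up 45.9 to 55.1% of the E-protein sum under DMSO and 40.1 to 50.3% under CCS1477, and its share was lower in 5 of 6 mice. Id transcripts per E-protein transcript were 0.809, 0.710 and 0.899 in *D/F* DMSO, 1.40, 0.408 and 1.04 in *D/F* CCS1477, 0.815, 1.32 and 1.10 in *T/F* DMSO and 0.958, 1.34 and 0.918 in *T/F* CCS1477. The proportion was higher with CCS1477 in 4 mice and lower in *D/F* replicate 2 and *T/F* replicate 3, so it had no common direction.

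**Figure D3:**
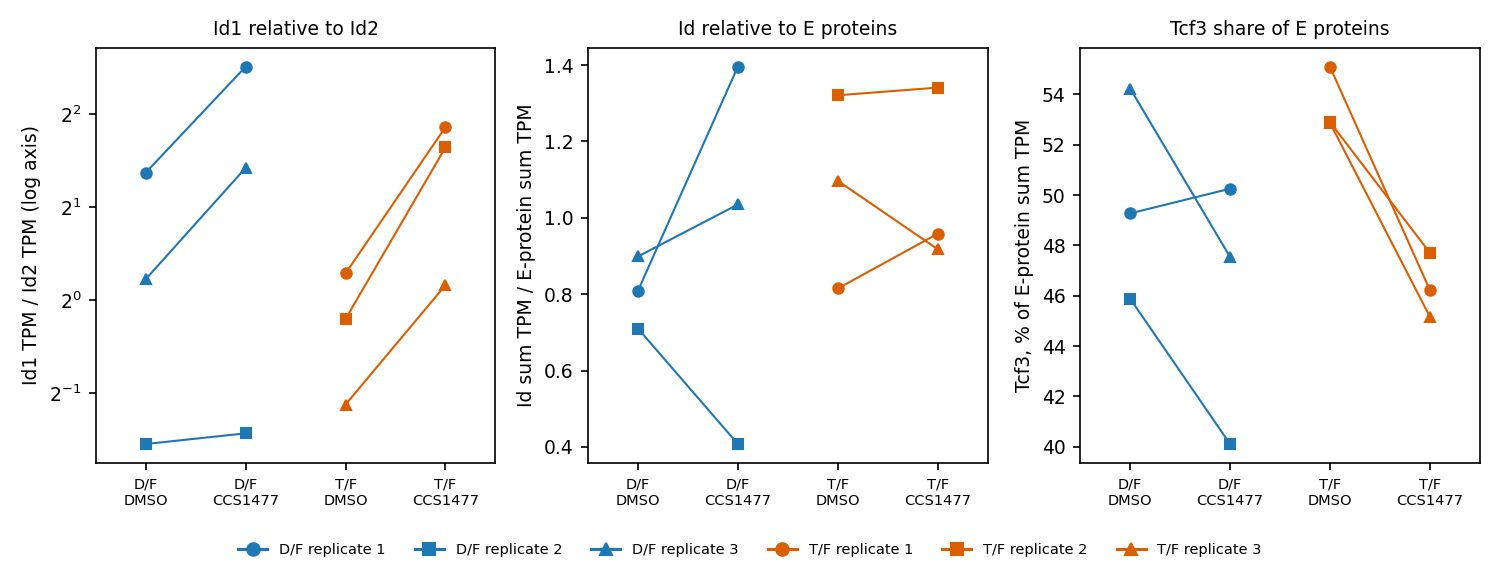
Proportions of transcripts in each library: *Id1* TPM divided by *Id2* TPM on a log2 axis (left), the summed Id TPM divided by the summed E-protein TPM (middle) and *Tcf3* as a percentage of the E-protein sum (right). Lines join the samples of a mouse; the *Id1* to *Id2* ratio is higher with CCS1477 in all 6 mice, while the Id to E-protein ratio is higher in 4 and lower in 2.

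The second comparison asked whether the genotypes differed. Under DMSO no member passed in limma, where 0.0328% of 15265 genes passed. An unadjusted p below 0.05 was found for 0 of the 6 members and for 939 of the 15265 genes. The difference, *T/F* minus *D/F*, was 0.72 for *Id3* (SE 0.76, adjusted p = 0.953), and it was 0.011 without *D/F* replicate 1 and 1.60 without *D/F* replicate 2 (adjusted p 0.998 and 0.242). That of *Id2* was 0.62 (SE 0.46, adjusted p = 0.932), with a 95% interval from -0.49 to 1.72. *Tcf12* was lower in *T/F* without overlap, from 34.3 to 36.9 TPM against 38.0 to 43.2 TPM, but its difference of -0.16 (SE 0.11, adjusted p = 0.932) did not pass, and the exact permutation test gave p = 0.1, the smallest it can give. Under CCS1477 no member passed, where 0.0329% of 15199 genes passed. There 1 member (*Id3*) had an unadjusted p below 0.05, as did 1643 of the 15199 genes. *Id3* was at 8.19 to 9.76 TPM in *T/F* and 4.33 to 7.33 TPM in *D/F*, a difference of 0.57 (SE 0.18, adjusted p = 0.365). The 95% interval for *Id1* ran from -0.71 to 1.22 under DMSO and from -1.31 to 2.77 under CCS1477, and that for *Id2* under CCS1477 from -0.43 to 1.14.

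The third comparison tested the difference between the responses, as the *T/F* change minus the *D/F* change. No member passed in limma and 0 of the 6 had an unadjusted p below 0.05, where 0% of 15583 genes passed and 659 had an unadjusted p below 0.05. With the mouse as a block 0% of genes passed, 2293 had an unadjusted p below 0.05, and 1 member (*Tcf12*) was among them. The *Tcf12* difference was 0.28 (SE 0.13, unadjusted p = 0.0600, adjusted p = 1.00), and the blocked fit gave an SE of 0.083 and an adjusted p of 0.250. For *Tcf3* the difference was 0.058 with a 95% interval from -0.26 to 0.38, and for *Id2* it was -0.26 with an interval from -1.61 to 1.09.

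The partners and cofactors that join E proteins on DNA were examined as a list of 18 genes, 13 of which were in the table. In *D/F* 0 of these 13 passed as higher and 2 as lower, in *T/F* 3 and 4, and over both genotypes 3 and 5. The shares of all genes were 5.14% and 6.51%, 25.8% and 17.6%, and 25.8% and 19.6%, so the share that passed as higher in *T/F* was near that of all genes. With the block 4 and 5, 3 and 7, and 4 and 7 of the list passed, beside 21.4% and 18%, 31.2% and 22.9%, and 34.5% and 25.9% of all genes. For *D/F* the 13 genes had a median of -0.40 and for *T/F* one of -0.17, beside 0.057 and 0.075 for all genes tested. *Lmo2*, the bridging protein that links E-protein and Tal1 or Lyl1 dimers to GATA factors, was the only listed gene to pass above 2-fold in both genotypes. It was at 333 TPM in *D/F* DMSO and 60.7 TPM in *D/F* CCS1477 (-2.37, adjusted p = 0.0106) and at 271 and 89.6 TPM in *T/F* (-1.58, adjusted p = 0.000510). *Ssbp4*, which binds the Lmo2 adaptor Ldb1, fell in both (-1.37, adjusted p = 0.0313, and -0.99, adjusted p = 0.00104). *Lyl1*, the class II partner of E2A, fell over both genotypes (-0.57, adjusted p = 0.00360) and in *T/F* (-0.36, adjusted p = 0.0203), and its *D/F* change of -0.77 passed only with the block (adjusted p = 0.0654, and 0.0312 with the block). *Tal1* was at 27.2 and 17.3 TPM in *D/F* and 22.6 and 20.0 TPM in *T/F*, a change over both genotypes of -0.36 that did not pass (adjusted p = 0.111, and 0.0270 with the block). *Cbfa2t3*, the ETO2 corepressor, had a change over both genotypes of -0.88 (adjusted p = 0.0760, and 0.00826 with the block). *Cbfa2t2*, another ETO-family gene of the list, rose over both genotypes (0.48, adjusted p = 0.00489, and 0.00278 with the block). *Lmo4* and *Ssbp3*, an LMO adaptor and a second Ldb1-binding protein, rose over both genotypes (0.57, adjusted p = 0.00249, and 0.95, adjusted p = 0.000303).

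The BMP and TGF-beta pathway, whose SMAD proteins are known to act on Id genes, had 23 of 31 listed genes in the table. In *D/F* 4 passed as higher and 0 as lower, in *T/F* 9 and 3, and over both genotypes 8 and 2. Among all genes tested 5.14% and 6.51%, 25.8% and 17.6%, and 25.8% and 19.6% did. With the block the counts were 9 and 3, 14 and 3, and 15 and 3, beside 21.4% and 18%, 31.2% and 22.9%, and 34.5% and 25.9% of all genes. For *D/F* the 23 genes had a median of 0.27 and for *T/F* one of 0.33, beside 0.057 and 0.075 for all genes. The receptors did not move one way. *Bmpr2*, the type II BMP receptor, passed above 2-fold in both genotypes, from 16.7 to 34.4 TPM in *D/F* (1.03, adjusted p = 0.0337) and from 16.3 to 35.3 TPM in *T/F* (1.07, adjusted p = 0.000474). *Acvr1*, a type I receptor, rose in both (0.88, adjusted p = 0.0459, and 0.94, adjusted p = 0.0228), as did *Smad4*, the common partner of the receptor SMADs (0.83, adjusted p = 0.0344, and 0.67, adjusted p = 0.000979), and *Smurf2*, a ubiquitin ligase for SMADs and receptors (0.99, adjusted p = 0.0189, and 0.78, adjusted p = 0.00103). *Acvrl1*, another type I receptor, fell in *T/F*, from 6.93 to 2.21 TPM (-1.30, adjusted p = 0.00133), and over both genotypes (-0.93, adjusted p = 0.00187). The ligand *Tgfb1* fell over both genotypes (-0.51, adjusted p = 0.000634). *Smad7*, an inhibitory SMAD that BMP and TGF-beta signaling is known to induce, had a change over both genotypes of -0.025 (adjusted p = 0.917), and *Smad6*, also an inhibitory SMAD and a known BMP target, had one of -0.15 (adjusted p = 0.558). In *T/F* *Smad6* passed as lower, from 2.14 to 1.62 TPM (-0.26, adjusted p = 0.0466, and 0.0453 with the block). Its *D/F* change was -0.044 (adjusted p = 0.949).

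Of 13 genes known as E-protein targets 7 were in the table, and most of the B and T lymphoid ones (*Rag1*, *Igll1*, *Vpreb1*, *Cd79a*, *Ptcra*) were not analysed here. In *D/F* 1 passed as higher and 0 as lower, in *T/F* 1 and 0, and over both genotypes 2 and 1 (3 and 0, 3 and 1, and 4 and 1 with the block). Of all genes 5.14% passed as higher and 6.51% as lower in *D/F*. In *T/F* and over both genotypes 25.8% of all genes passed as higher, and 17.6% and 19.6% as lower. With the block the shares of all genes were 21.4% and 18%, 31.2% and 22.9%, and 34.5% and 25.9%. *Foxo1*, a transcription factor that E2A activates in early B cells, passed above 2-fold in both genotypes, from 3.97 to 14.8 TPM in *D/F* (1.71, adjusted p = 0.0162) and from 4.52 to 13.6 TPM in *T/F* (1.41, adjusted p = 0.00150). *Notch1* rose over both genotypes (0.53, adjusted p = 0.0162) and *Il7r*, the interleukin-7 receptor, fell (-1.80, adjusted p = 0.0152). *Cdkn1a*, the cell cycle inhibitor p21, had a change of 0.39 that did not pass (adjusted p = 0.178, and 0.0396 with the block).

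The plasmacytoid dendritic cell program that *Tcf4* directs had 7 of 12 listed genes in the table, and shares *Siglech* and *Spib* with the marker list used above. In *D/F* 0 passed in either direction, in *T/F* 1 passed as higher and 1 as lower, and over both genotypes 1 and 3. The shares of all genes were 5.14% and 6.51% in *D/F*, 25.8% and 17.6% in *T/F*, and 25.8% and 19.6% over both. With the block the counts were 1 and 2, 1 and 5, and 1 and 3. The blocked shares of all genes were 21.4% and 18%, 31.2% and 22.9%, and 34.5% and 25.9%. *Irf7*, an interferon regulatory factor, rose over both genotypes (1.11, adjusted p = 0.00472), and *Irf8*, needed for dendritic and monocytic cells, fell (-1.22, adjusted p = 0.000875). The 5 genes known to control Id or E-protein stability were all in the table. Without the block 1 was called higher for *D/F*, 3 for *T/F* and 3 over both genotypes, and 0 were called lower. Of all genes 5.14%, 25.8% and 25.8% were called higher, and 6.51%, 17.6% and 19.6% lower. The block left the higher counts at 1, 3 and 3 and gave 0, 0 and 1 lower. Blocked, all genes had 21.4%, 31.2% and 34.5% higher, and 18%, 22.9% and 25.9% lower. *Stub1*, a ubiquitin ligase, rose in each genotype (0.84, adjusted p = 0.0185, and 0.54, adjusted p = 0.00374). *Usp1*, the deubiquitinase that stabilizes Id proteins, had a change over both genotypes of -0.22 (adjusted p = 0.158, and 0.0177 with the block).

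**Figure D4:**
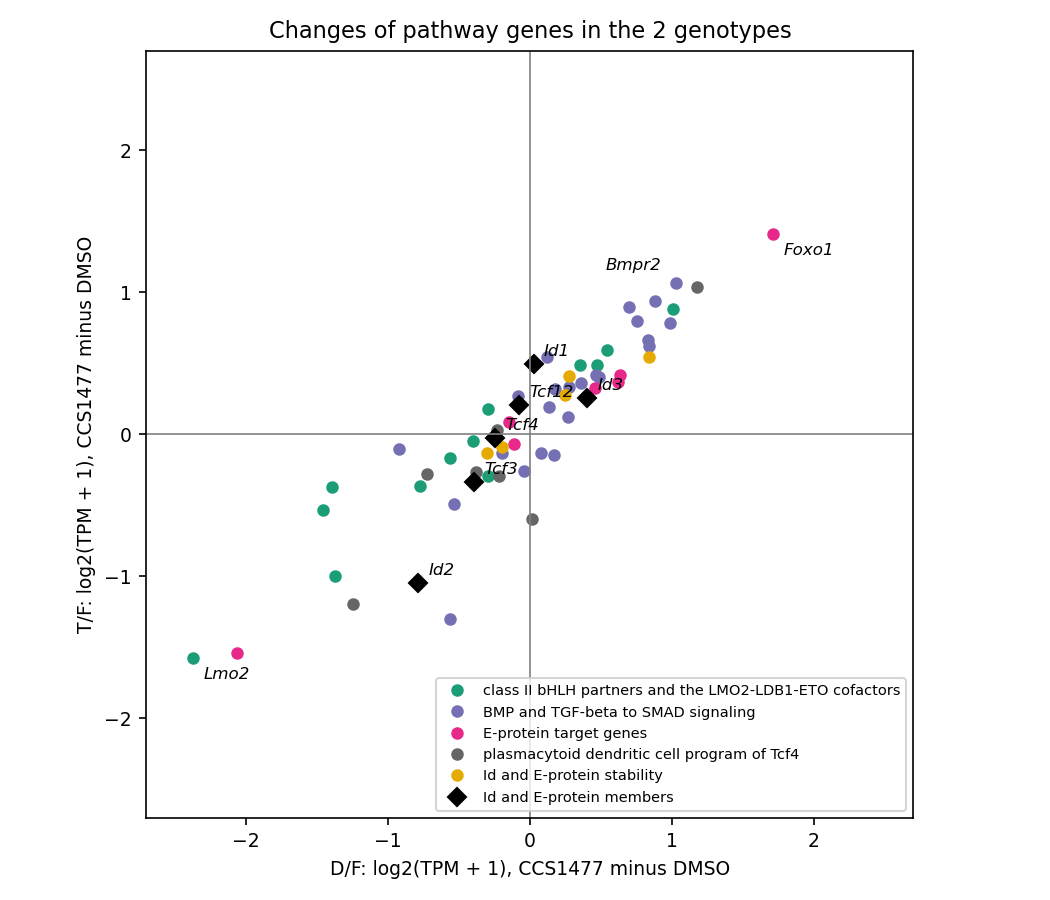
Change with CCS1477 in *D/F* (horizontal axis) and *T/F* (vertical axis), as differences of log2(TPM + 1), for the genes of the 5 pathway lists (circles coloured by list) and the 6 Id and E-protein genes (black diamonds); *Lmo2*, *Bmpr2* and *Foxo1* are named because they passed above 2-fold in both genotypes. *Id2* lies at -0.79 in *D/F* and -1.05 in *T/F* and *Tcf3* at -0.40 and -0.34, while *Lmo2* lies at -2.37 and -1.58.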

How the data were processed

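The authors processed RNA-seq reads of 12 libraries in AltAnalyze and deposited TPM per gene, labelled as kallisto output; the submitters' notes name mm10, and the annotation used is not given in the sources used here. The table is not pooled, holds only genes above 2.00 TPM in at least 1 library, and keeps no read numbers. The paper states a nominal sequencing depth per sample, but the depth that each library reached is unknown. The labels name both ribosomal RNA depletion and an mRNA kit.

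Symbols and positions came from GENCODE vM21 (GRCm38), and promoter windows from RefSeq (GRCm38.p6; 4 of the 6 genes). Of the 31-base words of *Id2* transcripts, 1.6% also occurred in another gene, and of the other 5 genes at most 0.65%. Genes averaging 1 TPM or more in any group compared were fitted on log2(TPM + 1) in R 4.3.3 with limma 3.58.1, two-sided, with Benjamini-Hochberg adjustment over all genes tested. The fit was tested on simulated data. The 36 exact permutation tests (6 per gene) on single genes were two-sided and are given unadjusted.

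The labels give the mouse of each sample, and the 2 samples of a mouse correlated at 0.340 to 0.655 after group means were subtracted, against at most 0.132 for different mice. P-values measure the spread between 3 mice per genotype. All 6 genes are named. Pathway genes are named where they passed above 2-fold in both genotypes or for their role. For each of the 6 genes the 2 genes most correlated with it were sought, and some of these are not reported here. The members and gene lists were chosen with earlier results of these data known.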

Additional observations from a re-analysis of the deposited data

Results flagged for a closer look

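The *Tcf12* values lay on opposite sides of 0 in the 2 genotypes, although the *D/F* change did not pass (-0.075, adjusted p = 0.772): its log2(TPM + 1) was lower with CCS1477 in all 3 *D/F* mice (by 0.026 to 0.13) and higher in all 3 *T/F* mice (by 0.15 to 0.24). The difference of the responses was 0.28 (SE 0.13). It did not pass in limma (adjusted p = 1.00, and 0.250 with the mouse as a block), and the exact permutation test of the 3 within-mouse changes against 3 gave p = 0.1, the smallest it can give. The doses also differed, 4 μM against 2 μM.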

How the results depend on the processing

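Over both genotypes, *Tcf3* passed under every alternative run. In the counts that follow, percentages are the share of all genes that passed in the same fit, in either direction. The number of members that passed was 0 in *D/F* (11.6%), 1 with the replicate block (*Id2*, 39.3%) and 1 in a fit of all 4 groups (*Tcf3*, 31.9%). In *T/F* it was 2 (43.4%), against 4 with the replicate block (54.1%). It was 1 each with libraries scaled to the median gene (41.2%), with quantile normalization (44.3%) and with the fit of all 4 groups (24.3%). Leaving out each mouse gave 0 to 1 members in *T/F* (20.9% to 33.7%) and 1 to 3 over both genotypes (36.3% to 55.4%). With the mouse as a block, in alternatives chosen after seeing the data, it gave 0 to 1 in *D/F* (0% to 33%). Those blocked alternatives gave 1 to 3 in *T/F* (33.5% to 39.8%) and 2 to 4 over both (54.4% to 60.3%). In the unblocked *D/F* fit no gene of the table passed without replicate 1 or 3 (lowest adjusted p 0.0771 and 0.172). Without replicate 2, with as few samples, 3739 genes passed in that fit, against 1805 with all 3 mice. Signs changed for 16 single values: *Id1* in *D/F* was -0.020 with median-gene scaling, and over the mice left out it ran from -0.34 (-0.17 without replicate 3) to 0.59 and *Id3* in *D/F* from -0.15 to 1.12, with the same ranges blocked. For the difference of responses the ranges were -0.86 to 0.41 for *Id3* (0.025 without *D/F* replicate 3), -0.098 to 0.84 for *Id1* and -0.053 to 0.15 for *Tcf3*. For the genotypes under DMSO they were -0.18 to 0.55 for *Id1* and -0.33 to 0.13 for *Tcf4*, and under CCS1477 -0.27 to 1.38 for *Id1* and -0.046 (-0.042 without *T/F* replicate 3) to 0.26 for *Tcf4*. The cause of these changes was not tested. Filtering at 5 TPM or not at all, a pseudocount of 0.1, and eBayes with a trend left the number of members that passed as it was in all 3 response fits, and in the fits of all mice the block changed no member's call other than those given. With 1 *T/F* mouse left out, calls in *T/F* that passed only with the block were *Id2* without replicate 2 or 3 (adjusted p 0.0241 and 0.0192), *Tcf3* without replicate 2 (0.0428), and *Id1* and *Id3* without replicate 3 (0.0225 and 0.0437). With no read numbers, the precision of low values such as *Id3* cannot be stated.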

Other observations

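For each of the 6 genes, the genes with the most similar levels were sought over the 12 libraries, among 12152 genes averaging 5 TPM or more in any group. The 12 libraries come from 6 mice, so the correlations are descriptions. The predicted gene *Gm10108* was among the 2 genes most similar to *Id1* (r = 0.957, and 0.964 after group means were subtracted). *Id2* was most similar to *Arhgap22* (0.969 and 0.969). *Id3* was most similar to *Fam234b* (0.942 and 0.975) and to *Dnmt3a*, the gene targeted in *D/F* (0.906 and 0.900). *Tcf3* was most similar to *Ing5* (0.982 and 0.865) and *H2-DMb2* (0.978 and 0.867), *Tcf4* to *Parp9* (0.964 and 0.971) and *Cyb5a* (0.951 and 0.952), and *Tcf12* to *Srek1ip1* (0.887 and 0.781) and *Tsc22d4* (0.878 and 0.853). Among the members themselves, *Id2* and *Tcf3* had the highest r before group means were subtracted (0.811), and *Id1* and *Tcf4* the lowest (-0.706). After group means were subtracted *Id2* and *Tcf3* were at 0.627. *Id3* and *Tcf4* then had the highest r (0.683), and *Id1* and *Tcf4* again the lowest (-0.766).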
